A study of Mus musculus with 10 samples.

Results

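CD8+ T cells that had shared a culture with keratinocytes were compared with CD8+ T cells kept without them, to see which transcripts of the T cells differ when keratinocytes are present. The comparison uses 2 libraries of each group, i.e. 4 of the 10 libraries of the study. All of these T cells were isolated with CD8 microbeads from spleens of C57/B6 mice and stimulated for 1 d with αCD3/CD28 Abs. They then spent 1 d either in medium without keratinocytes, which the labels call keratinocyte medium and the methods describe as a mix of keratinocyte and T-cell medium, or together with primary murine keratinocytes. The labels give 1 d for this co-culture, whereas the deposited design text names a shorter time. Of the other libraries, 2 each came from freshly activated T cells, from keratinocytes alone, and from co-cultured keratinocytes from which the T cells had been washed off. None of the groups carried a mutation, and all T cells had received the αCD3/CD28 Abs.

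CD8+ T cells kill target cells through granzymes and perforin and secrete cytokines and chemokines. Keratinocytes form the epidermis. Basal keratinocytes express the keratins Krt5 and Krt14, spinous cells begin to differentiate, and granular cells produce the proteins of the cornified envelope, the protein shell of the dead surface cells, together with proteases that cleave the last contacts between these cells. Krt6a, Krt6b, Krt16, and Krt17 are keratins of wounded epidermis and of cultured keratinocytes.

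The deposited tables hold 25814 genes. A class of 3722 keratinocyte-restricted genes had a mean level in keratinocytes alone at least 10 times that in T cells without keratinocytes, and the other 22092 genes are called remaining genes. Levels are given as RPKM, i.e. reads per kb of exon length scaled to the library's mapped reads. Just inside the class lay Por with a ratio of 10.03, and just outside lay Capn2 with a ratio of 9.96. Since the control libraries of the comparison also defined the class, the direction in which the class differs as a whole is a description and was not tested.

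The 4 libraries held between 12864931 and 15518016 exon reads, and a count of 3 reads over 1 kb of exons equals 0.174 to 0.212 RPKM in them. Replicate libraries differed far beyond sampling noise (chi-square per degree of freedom 94.2 without and 115 with keratinocytes). Over the remaining genes, the median absolute log2 difference was 0.46 between both control libraries and 0.49 between both co-cultured libraries, whereas across the groups it was 0.26 between both libraries 1, 0.35 between both libraries 2, and 0.42 and 0.57 for the crossed pairs. Some libraries of different groups were thus closer to each other than libraries of the same group. The numbers 1 and 2 used below follow the order of deposition. The labels do not say which libraries were handled together, and all tests below treat them as unpaired. If libraries were handled in pairs, these tests count the difference between pairs as spread and can miss changes. The labels do not say whether the libraries came from separate cultures, so p-values measure the spread between these libraries, which may be technical. An exact two-sided permutation test of 2 against 2 cannot give a p below 0.333, and all p-values below are from edgeR's quasi-likelihood test across all genes.

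The CD8 markers were high in all 4 libraries. Cd8a, one chain of the CD8 coreceptor, was measured at 334 and 219 RPKM without and at 312 and 209 RPKM with keratinocytes. Cd8b1, the other chain, was measured at 762 and 380 RPKM without and at 681 and 327 RPKM with keratinocytes. The groups overlapped for both genes (log2 fold changes of -0.04 ± 0.34 and -0.14 ± 0.46, SE, n = 2 per group, edgeR). All 13 genes of a T-cell identity list, among them Cd3e, Lck, and Thy1, had fold changes below 0 with a median of -0.18 on the log2 scale, 4 were lower without overlap, beside 13.8% of the remaining genes, and none passed the test. Without co-cultured library 2, 7 of the 13 were above 0. In bulk RNA, fewer cells of a type and less RNA per cell cannot be told apart.

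Of 11863 genes tested, 31 were higher in co-cultured T cells at an adjusted p under 0.05 (0.261% of the genes tested), and all 31 belonged to the keratinocyte-restricted class, of which 1043 genes were tested. They included genes for cornified envelope proteins and their neighbors (Sprr1a, Sprr1b, Sprr2a2, Lce3c, Lce3d, Lce3e, Lce3f, Crct1, Kprp, Cnfn, and 2310046K23Rik), proteases and protease inhibitors (Klk6, Klk7, Klk10, Asprv1, Cpa4, Ctsl, Spink5, and Cst6), and 6 keratins (Krt6a, Krt6b, Krt14, Krt16, Krt17, and Krt80). The others were Cdsn and Perp, which code for proteins of cell contacts, Dmkn and Sbsn, which code for secreted proteins of differentiating keratinocytes, the calmodulin-like gene Calm4, and the gasdermin gene Gsdma. No gene was lower at this threshold by edgeR (0 of 11863). At an unadjusted p under 0.05, 320 genes were higher (2.70%) and 89 lower (0.750%), together 3.45% of the genes tested, and DESeq2 called 81 genes higher and 6 lower after adjustment.

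**Figure D1:**
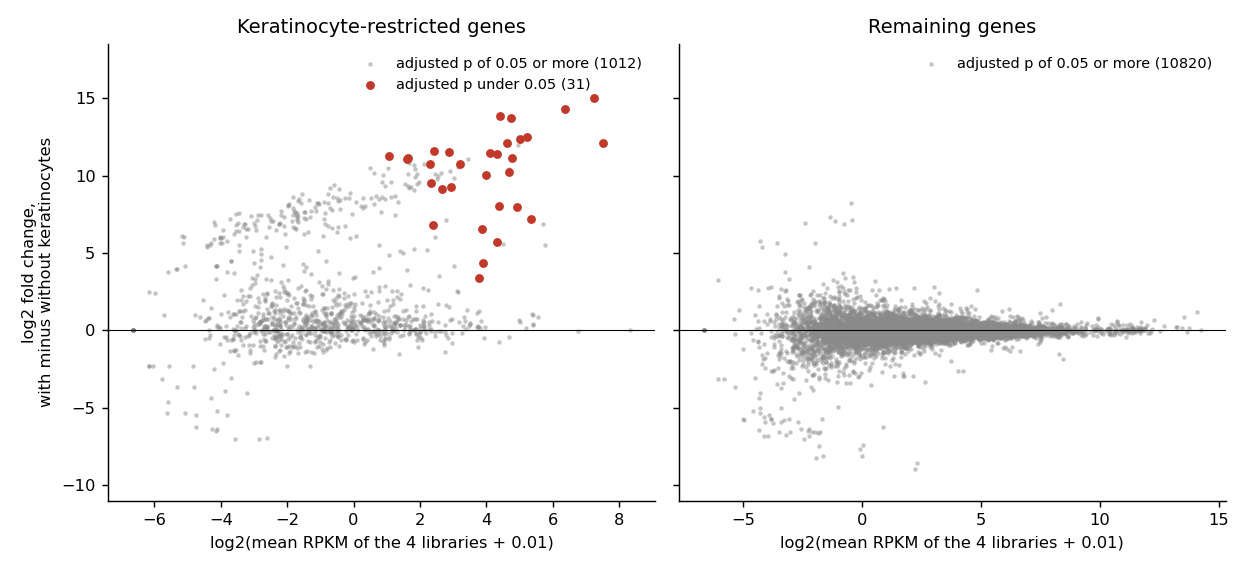
Log2 fold change of each tested gene, with minus without keratinocytes (y axis), against its mean level in the T-cell libraries (x axis, log2 scale), for keratinocyte-restricted genes (left) and remaining genes (right). Red points mark the 31 genes with an adjusted p under 0.05, and all of them lie above 0 in the left panel.

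Of the 31 genes, 16 had no read in either control library, and another 7 had 1 to 3 reads in both together. The 16 passed the filter on low counts only through the co-cultured libraries and had to differ. Since they had reads in keratinocytes alone, the definition of the class also placed them in it. For these 16, neither the adjusted p-value nor the place in the class is independent support. The 7 with 1 to 3 control reads also passed the filter only through the co-cultured libraries. So did Cst6, Krt6a, Krt16, and Krt17. The adjusted p-values of all these genes are no independent support either. With keratinocytes, each of the 31 had between 386 and 8751 reads in both libraries together. They took 0.00200% and 0.00304% of all exon reads without and 0.246% and 0.241% with keratinocytes, compared with 6.22% and 6.40% in keratinocytes alone. Where the controls had no read, a fitted fold change depends on the prior count and is no bound, so folds are given against a floor of 3 reads over both control libraries. Where they had 1 to 3 reads, the ratio is given with a 95% exact interval that covers counting error only. As a median over these 31, the log2 fold change was 11.10 as fitted and 8.05 with the genes without control reads set to their bound.

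The cornified envelope gene Sprr1a and its neighbor Crct1 had the highest mean levels among these genes in co-cultured T cells, 367 and 304 RPKM. Others of their group were far lower, such as Kprp with a mean of 6.23 RPKM. Sprr1a, a small proline-rich protein that is cross-linked into the envelope, was at 0 and 0.144 RPKM without and at 429 and 306 RPKM with keratinocytes. Its control value rests on 2 reads, and the ratio was 4870 with an interval of 1348 to 40219 (edgeR adjusted p = 0.00234). Both co-cultured libraries lay far above both controls, and library 1 was the higher one. Crct1, a neighbor in the epidermal differentiation complex, had no control read and reached 228 and 380 RPKM, at least 2601-fold higher (edgeR adjusted p = 0.00595). Sprr1b was at 0 and 0.0698 RPKM without and at 26.97 and 75.3 RPKM with keratinocytes (edgeR adjusted p = 0.0191). For Crct1 and Sprr1b, library 2 was the higher one.

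The late cornified envelope genes of the Lce3 group had no read in the control libraries. Lce3c was measured at 55.5 and 95.0 RPKM with keratinocytes, at least 460-fold higher (edgeR adjusted p = 0.0140). Lce3f was measured at 46.9 and 82.0 RPKM, at least 425-fold higher (edgeR adjusted p = 0.0155). Lce3d reached 31.6 and 48.8 RPKM, and Lce3e reached 22.8 and 46.7 RPKM. Library 2 was higher than library 1 for all 4 genes. Between 58.8% (Lce3f) and 74.1% (Lce3c) of their reads were mapped uniquely, so that reads may be divided among these similar genes. The same holds for the related Krt6a (50.05% unique reads) and Krt6b, and for Sprr2a2, which had no unique read.

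On the whole list of cornified envelope genes, 16 of 21 genes passed the filter on low counts, 5 were higher after adjustment, and in all 16 both co-cultured libraries lay above both controls. Among all genes tested, 0.261% were higher after adjustment, and 14.2% were higher and 13.1% lower without overlap. Because 13 of the 16 genes had no control read, they passed the filter only through the co-cultured libraries and had to differ. Sprr1a and Sprr1b, with 2 and 1 control reads, also passed it only through these libraries. Their median log2 fold change was 10.15, or 6.75 with bounds, against -0.01 over all genes tested. Lor, the loricrin gene, had no control read and 1.92 and 1.07 RPKM with keratinocytes, and did not pass after adjustment. Flg, the filaggrin gene, had 0.0275 and 0.424 RPKM and Ivl, the involucrin gene, 0.205 and 0.147 RPKM with keratinocytes, and neither passed the filter.

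Kallikreins are serine proteases that act in the shedding of surface cells. Klk7 had no control read and was measured at 56.3 and 51.1 RPKM with keratinocytes, at least 1112-fold higher (edgeR adjusted p = 0.00519). Klk6 reached 13.97 and 15.4 RPKM from no read, at least 242-fold higher (edgeR adjusted p = 0.0176). Both co-cultured libraries were close to each other for these genes. Spink5, an inhibitor of kallikreins, had 0.0135 and 0.0121 RPKM without and 8.58 and 11.6 RPKM with keratinocytes, a ratio of 785 with an interval of 217 to 6486 (edgeR adjusted p = 0.00519). Klk8 was found in T cells of both groups, with 39.9 and 45.5 RPKM without and 53.6 and 60.9 RPKM with keratinocytes (log2 fold change 0.47 ± 0.41, edgeR adjusted p = 1). Of the list of 12 proteases and inhibitors, 8 were tested and 5 were higher after adjustment, beside 0.261% of all genes tested. Of these 8, 4 had no control read, passed the filter on low counts only through the co-cultured libraries, and had to differ. Spink5 and Cst6, with 2 and 12 control reads, also passed it only through these libraries.

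Cdsn, the corneodesmosin gene, had no control read and was at 45.04 and 40.2 RPKM with keratinocytes, at least 1247-fold higher (edgeR adjusted p = 0.00637). Calm4 likewise had no control read and was at 146 and 183 RPKM, at least 1642-fold higher (edgeR adjusted p = 0.0187). Ctsl, the gene of the lysosomal protease cathepsin L, was the one with most control reads among the 31 (517). It rose from 2.10 and 2.86 RPKM to 25.2 and 25.3 RPKM (log2 fold change 3.39 ± 0.37, edgeR adjusted p = 0.0131). The groups did not overlap for any of these genes.

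**Figure D2:**
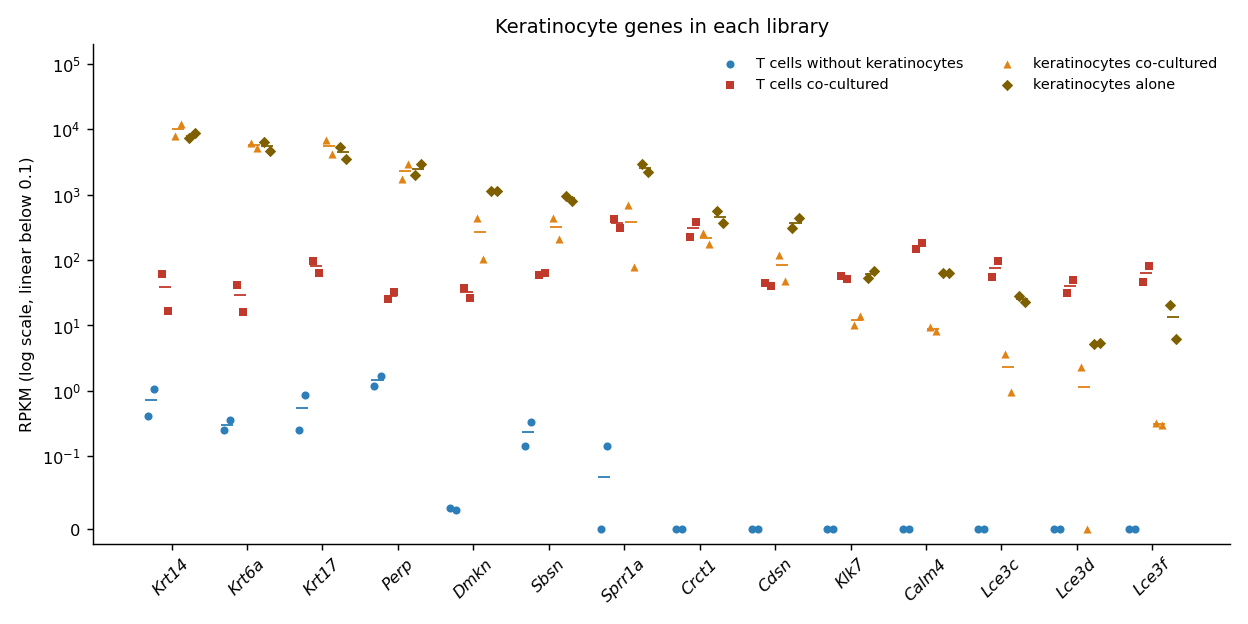
RPKM of keratinocyte-restricted genes in single libraries (y axis, linear below 0.1 and logarithmic above) for T cells and keratinocytes. Points are libraries and lines are group means, and for Klk7 both co-cultured T-cell libraries (56.3 and 51.1 RPKM) lie close to the mean of keratinocytes alone (61.4 RPKM) while both controls are at 0.

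The keratins of wounded epidermis were all higher in co-cultured T cells, with 4 of 4 passing the test, beside 0.261% of all genes tested. Among them, Krt6b had no control read. All 4 passed the filter on low counts only through the co-cultured libraries, so that this count is a description. Krt17 was at 0.250 and 0.860 RPKM without and at 98.3 and 64.2 RPKM with keratinocytes (log2 fold change 7.17 ± 0.67, edgeR adjusted p = 0.00714). Krt14, the basal keratin, was at 0.419 and 1.06 RPKM without and at 61.6 and 16.8 RPKM with keratinocytes (log2 fold change 5.68 ± 0.80, edgeR adjusted p = 0.0449). For both genes library 1 was the higher of the co-cultured libraries. Krt5, the partner of Krt14, had 0.118 and 0.158 RPKM without and 5.74 and 2.38 RPKM with keratinocytes, and missed the threshold (edgeR adjusted p = 0.134). Of 14 basal genes, 9 were tested and Krt14 was the 1 that passed. Of the desmosome list, 7 of 11 genes were tested and Perp passed, with 1.19 and 1.69 RPKM without and 25.1 and 32.1 RPKM with keratinocytes. Of 12 spinous genes, 10 were tested, and Dmkn and Sbsn passed.

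Genes of different layers were present in unlike proportions to their levels in keratinocytes. Summed over the class members of each list, cornified envelope genes reached 822 and 944 RPKM in co-cultured T cells, which is 16.5% and 19.0% of the mean sum in keratinocytes alone. Proteases and inhibitors reached 10.02% and 9.10%, and spinous genes 3.92% and 6.13%. Wound keratins reached 1.56% and 0.899%, desmosome genes 0.678% and 0.658%, and basal genes 0.604% and 0.182%. Most of the cornified envelope sum came from Sprr1a (429 and 306 RPKM) and Crct1 (228 and 380 RPKM). Its members differed widely, with 1.56% and 0.850% for Tgm1 but 216% and 370% for Lce3c. Against the mean of co-cultured keratinocytes the cornified envelope sum was 63.7% and 73.1%, and the basal sum 0.495% and 0.149%. The co-cultured keratinocyte libraries themselves differed widely in the cornified envelope sum, with 2042 and 541 RPKM, and both T-cell sums lay between them. These shares are descriptions, since the class was defined by the level in keratinocytes.

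**Figure D3:**
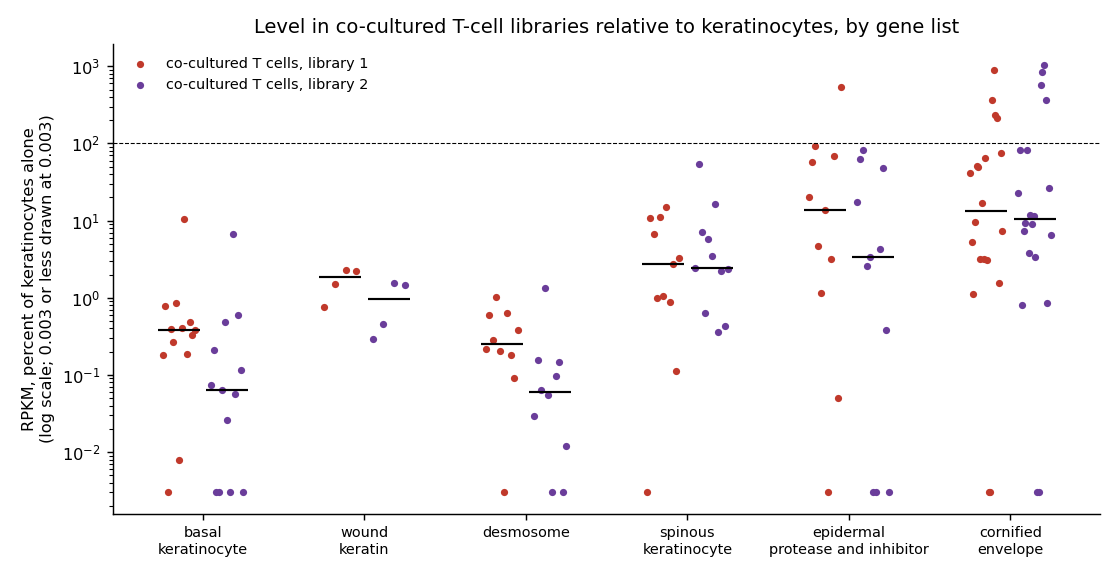
Level of each keratinocyte-restricted list gene in co-cultured T cells as percent of its mean in keratinocytes alone (y axis, log scale), by layer list and library. Points are genes, values of 0.003 or less are drawn at 0.003, black lines are medians, and the dashed line marks 100, above which several cornified envelope genes lie, such as Lce3c.

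Within 1 library, the ratio of 2 genes does not depend on how many reads were sequenced. Crct1 stood to Krt14 as 3.71 and 22.7 in co-cultured T cells, as 0.0767 and 0.0417 in keratinocytes alone, and as 0.0330 and 0.0149 in co-cultured keratinocytes. Klk7 stood to Krt14 as 0.915 and 3.05 in co-cultured T cells and as 0.00746 and 0.00788 in keratinocytes alone. Both T-cell libraries lay above all keratinocyte libraries for both ratios, and library 2 lay above library 1.

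Of the 31 genes, 6 had a higher mean in co-cultured T cells than in keratinocytes alone, and 12 had a higher mean than in co-cultured keratinocytes. Calm4 averaged 165 RPKM in co-cultured T cells, 63.2 RPKM in keratinocytes alone, and 8.94 RPKM in co-cultured keratinocytes. For Lce3f these means were 64.4, 13.4, and 0.310 RPKM. At the other end, 3 of the 31 genes stayed below 1% of the mean in keratinocytes alone, among them Krt14 with 7979 RPKM there. Of 217 class genes with at least 50 RPKM in co-cultured keratinocytes, 81 had below 1% of that level in co-cultured T cells and 35 had 10% or more. After the control level had been subtracted, the median share over these 217 genes was 0.805% in library 1 and 0.317% in library 2.

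Among the 129 class genes with at least 5 RPKM in co-cultured T cells, 18 lay above both keratinocyte means. They comprised 11 Lce genes, and 15 of the 18 lie on chromosome 3. S100a8 and S100a9, which code for the alarmin calprotectin of keratinocytes and myeloid cells, were among them, and both are named after their values were seen. S100a8 was at 1.07 and 0.835 RPKM without and at 37.0 and 170 RPKM with keratinocytes (edgeR adjusted p = 0.0829). S100a9 was at 0.992 and 0.888 RPKM without and at 28.2 and 60.0 RPKM with keratinocytes (edgeR adjusted p = 0.0760). The groups did not overlap, but neither gene passed after adjustment.

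Markers of other cells were read beside these genes. The summed level of 6 myeloid markers was 54.1 and 59.9 RPKM without and 50.1 and 52.5 RPKM with keratinocytes, i.e. slightly lower in both co-cultured libraries. Of 7 tested markers of Langerhans and dendritic cells, 6 had fold changes below 0, with a list median of -0.98 on the log2 scale (-0.12 without control library 2). The one above 0 was Epcam. The clearly lower ones were the MHC class II genes Cd74, H2-Aa, H2-Ab1, and H2-Eb1, which are given with the B-cell markers below. Itgax and Flt3 were nearly level, with ratios of reads scaled to depth of 0.975 and 0.954. Epcam, a marker of epithelial and Langerhans cells, had 0.952 and 0.966 RPKM without and 4.54 and 2.70 RPKM with keratinocytes, and Cd207, the defining marker of Langerhans cells, was at 0 in all 4 libraries. The melanocyte genes Dct and Tyrp1 had 56 and 59 reads in co-cultured library 1 and none in the other 3. Pmel, the 1 tested gene of the melanocyte list, had 6 and 43 reads without and 66 and 11 reads with keratinocytes, and the groups overlapped. The part of keratinocyte RNA or cells carried over into the T-cell libraries was not tested.

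Many of the 31 genes are neighbors in the genome (GRCm38). On chr3:92215920-93015687, the epidermal differentiation complex, 10 of the 31 lie within 800 kb, and all 30 genes tested there were higher without overlap, beside 14.2% of all genes tested. On chr7:43781035-43832030, Klk6, Klk7, and Klk10 lie within 51.0 kb, and 5 of 5 genes tested were higher without overlap. Krt14, Krt16, and Krt17 lie on chr11:100203162-100261029, and Krt6a, Krt6b, and Krt80 on chr15:101347444-101694307. Sbsn and Dmkn lie next to each other on chr7:30751471-30781063. Since 42 of the 46 genes in the stretch on chromosome 3 and 4 of the 5 in the kallikrein stretch belong to the class, the direction there is a description. The called genes themselves set the ends of these stretches. Genes there without control reads passed the filter on low counts only through the co-cultured libraries and had to be higher. The counts without overlap are therefore descriptions too, and no enrichment was tested.

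Promoters of the 19 called genes with a RefSeq promoter were searched for TGANTCA, the known motif of AP-1, a factor of differentiating keratinocytes. Promoters of 5 genes, picked by hand, are shown as a description. They are RefSeq sequences (GRCm38.p6) from 150 to 21 bases before the start, 5′ to 3′ on the gene's strand, with the motif in capitals. The motif is its own reverse complement, so that a search of one strand covers both. Sprr1a lies at chr3:92485902-92486031 (minus strand), Sprr1b at chr3:92438800-92438929 (minus strand), Sbsn at chr7:30751321-30751450 (plus strand), Dmkn at chr7:30763606-30763735 (plus strand), and Lce3c, shown as one without the motif, at chr3:92944336-92944465 (plus strand).
Sprr1a: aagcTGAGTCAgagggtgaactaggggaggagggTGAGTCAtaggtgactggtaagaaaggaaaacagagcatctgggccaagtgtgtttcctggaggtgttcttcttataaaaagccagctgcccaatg
Sprr1b: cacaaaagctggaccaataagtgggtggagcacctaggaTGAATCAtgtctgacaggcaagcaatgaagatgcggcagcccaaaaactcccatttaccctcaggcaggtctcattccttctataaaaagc
Sbsn: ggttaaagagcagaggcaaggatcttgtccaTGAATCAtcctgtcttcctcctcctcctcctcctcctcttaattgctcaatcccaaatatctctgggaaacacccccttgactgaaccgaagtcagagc
Dmkn: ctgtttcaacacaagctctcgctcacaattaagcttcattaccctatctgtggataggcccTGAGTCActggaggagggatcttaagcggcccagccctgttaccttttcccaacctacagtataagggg
Lce3c: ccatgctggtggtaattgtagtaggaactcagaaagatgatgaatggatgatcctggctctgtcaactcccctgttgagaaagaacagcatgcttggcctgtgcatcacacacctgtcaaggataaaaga
Within 250 bases before the start, 5 of the 19 called genes with a RefSeq promoter held TGANTCA (26.3%), compared with 7.82% of 27025 genes. These were Sprr1a, Sprr1b, Sbsn, Dmkn, and Cpa4. Sprr1a and Sprr1b lie in the same complex and Sbsn and Dmkn next to each other, so the 5 genes are not independent. The motif TATAAA on the gene strand was found in 3 of 19 (15.8%), compared with 8.94% of all genes. A match is a description of the letters and was not tested as a site.

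Of the 10820 remaining genes tested, none passed after adjustment by edgeR, whereas DESeq2 called 9 and limma 1 or 3, depending on the pseudocount. At an unadjusted p under 0.05, 79 were higher (0.730%) and 80 lower (0.739%), and 11.6% were higher and 13.8% lower without overlap. The median log2 fold change of the remaining genes was -0.03, compared with 0.68 for the class. The values below are therefore given as values of genes that did not pass the test.

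The gene with the smallest adjusted p among the higher remaining genes named by rule was Bcl2, which codes for a survival protein. It was at 3.58 and 2.46 RPKM without and at 11.9 and 7.83 RPKM with keratinocytes (log2 fold change 1.75 ± 0.36, edgeR adjusted p = 0.201, and 0.00297 to 1 over 12 alternatives). Gzmb, the gene of the cytotoxic protease granzyme B, was at 134 and 174 RPKM without and at 391 and 574 RPKM with keratinocytes (log2 fold change 1.71 ± 0.38, edgeR adjusted p = 0.310, and 0.00141 to 1 over 12 alternatives). For both genes the groups did not overlap. In freshly activated T cells Gzmb was at 2966 and 1968 RPKM. Il12rb2, a chain of the IL-12 receptor, was at 10.1 and 3.09 RPKM without and at 23.5 and 17.5 RPKM with keratinocytes (edgeR adjusted p = 1). The other higher genes named by this rule were Pde2a, Ier5l, AA467197, Tubb2b, Igsf23, AC034099.1, and Bst1, with log2 fold changes from 1.68 (Bst1) to 2.82 (Pde2a). Without co-cultured library 2 the log2 fold change fell from 2.74 to 1.08 for Ier5l, from 2.42 to 0.90 for AA467197, and from 1.92 to 0.30 for Tubb2b. AA467197 averaged 161.5 RPKM and Tubb2b 31.0 RPKM in co-cultured keratinocytes. Only 2.10% of the reads of Pde2a and 1.56% of those of AC034099.1 were unique.

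All 14 tested genes of the cytotoxic list had fold changes above 0, with a median of 0.43 on the log2 scale, and none passed after adjustment. With limma 13 of the 14 were above 0, and without co-cultured library 2 the number was 10 with a median of 0.18. For 4 of them (Gzmb, Gzmk, Fasl, and Klrk1) the groups did not overlap, beside 11.6% of the remaining genes. Fasl, the ligand of the death receptor Fas, was at 1.30 and 1.86 RPKM without and at 3.15 and 3.47 RPKM with keratinocytes. Prf1, the perforin gene, was at 4.28 and 3.75 RPKM without and at 5.59 and 2.68 RPKM with keratinocytes, and the groups overlapped. Gzma was at 5.21 and 11.9 RPKM without and at 10.3 and 87.6 RPKM with keratinocytes, so that its mean rests on library 2.

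Of 8 targets of STAT5, the transcription factor downstream of IL-2, 6 had fold changes above 0 with a list median of 0.46 on the log2 scale, and 5 were higher without overlap, beside 11.6% of the remaining genes. Cish was at 8.82 and 14.7 RPKM without and at 19.5 and 23.3 RPKM with keratinocytes, and Socs3 at 11.4 and 12.7 RPKM without and at 23.3 and 37.9 RPKM with keratinocytes. Both code for inhibitors of cytokine signaling. Among 11 checkpoint receptors tested, 6 were higher without overlap, beside the same 11.6%, such as Lag3 with 71.8 and 68.4 RPKM without and 95.4 and 107 RPKM with keratinocytes. None of these genes passed after adjustment.

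**Figure D4:**
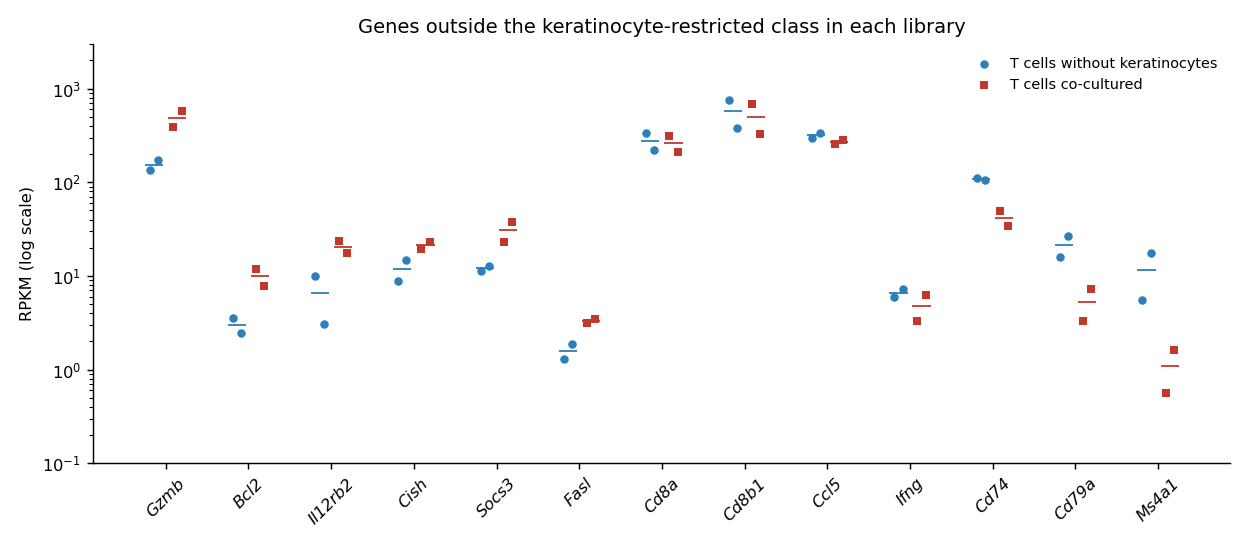
RPKM of T-cell genes and B-cell markers in single libraries (y axis, log scale) for the T-cell groups. Points are libraries and lines are means, and Gzmb is higher in both co-cultured libraries (391 and 574 RPKM) than in both controls (134 and 174 RPKM), while Cd79a is lower.

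Cytokine and chemokine genes of T cells, their targets, and Cd274 did not pass the test. Ifng, the IFN-γ gene, was at 5.95 and 7.20 RPKM without and at 3.26 and 6.20 RPKM with keratinocytes, and at 613 and 589 RPKM in freshly activated T cells. Ccl3 was at 12.8 and 10.6 RPKM without and at 11.8 and 10.98 RPKM with keratinocytes, and Ccl4 at 11.3 and 30.6 RPKM without and at 19.9 and 18.52 RPKM with keratinocytes. Ccl5 was at 300 and 335 RPKM without and at 256 and 281 RPKM with keratinocytes, and the groups did not overlap (log2 fold change -0.19 ± 0.63, edgeR adjusted p = 1). Cxcl9, a ligand of the receptor CXCR3, was at 0.964 and 0.441 RPKM without and at 1.27 and 0.856 RPKM with keratinocytes. Cxcl10, another such ligand, was at 4.51 and 5.15 RPKM without and at 2.98 and 2.98 RPKM with keratinocytes, with 25.7% unique reads. Cd274, which codes for PD-L1, was at 5.47 and 4.08 RPKM without and at 4.44 and 4.70 RPKM with keratinocytes. Of 34 interferon-induced genes tested, 19 had fold changes above 0, and the list median was 0.08 on the log2 scale. This median changed sign with the library left out. It was -0.27 without co-cultured library 1, 0.39 without co-cultured library 2, 0.39 without control library 1, and -0.08 without control library 2. Such a fit also compares unequal numbers of libraries 1 and 2, and what moved the median was not tested.

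B-cell markers were lower in both co-cultured libraries, though none passed after adjustment. All 6 tested genes were lower without overlap, beside 13.8% of the remaining genes, with a median of -2.05 on the log2 scale, and Ighm was listed at 0 in all libraries. Ms4a1, which codes for CD20, was at 5.54 and 17.5 RPKM without and at 0.555 and 1.63 RPKM with keratinocytes (log2 fold change -3.35 ± 0.77, edgeR adjusted p = 0.342, and 6.57e-07 to 1 over 12 alternatives). Cd79a, a chain of the B-cell receptor complex, was at 15.9 and 26.9 RPKM without and at 3.29 and 7.28 RPKM with keratinocytes. The summed level of the list was 44.97 and 92.9 RPKM without and 16.7 and 27.4 RPKM with keratinocytes. Cd74, the invariant chain of MHC class II, was at 110 and 106 RPKM without and at 49.0 and 34.2 RPKM with keratinocytes, and H2-Aa, H2-Ab1, and H2-Eb1 were lower without overlap as well. The other lower genes named here were Iglc2, Mzb1, Fcrla, Napsa, Hbb-bs, Hist1h3h, and Gm6594.

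All 14 genes of DNA replication and mitosis had fold changes below 0, with a median of -0.39 on the log2 scale, and none passed after adjustment. Without co-cultured library 2 the median was -0.06, and 9 of the 14 were below 0. The sums overlapped, with 1036 and 970 RPKM without and 976 and 571 RPKM with keratinocytes.

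**Figure D5:**
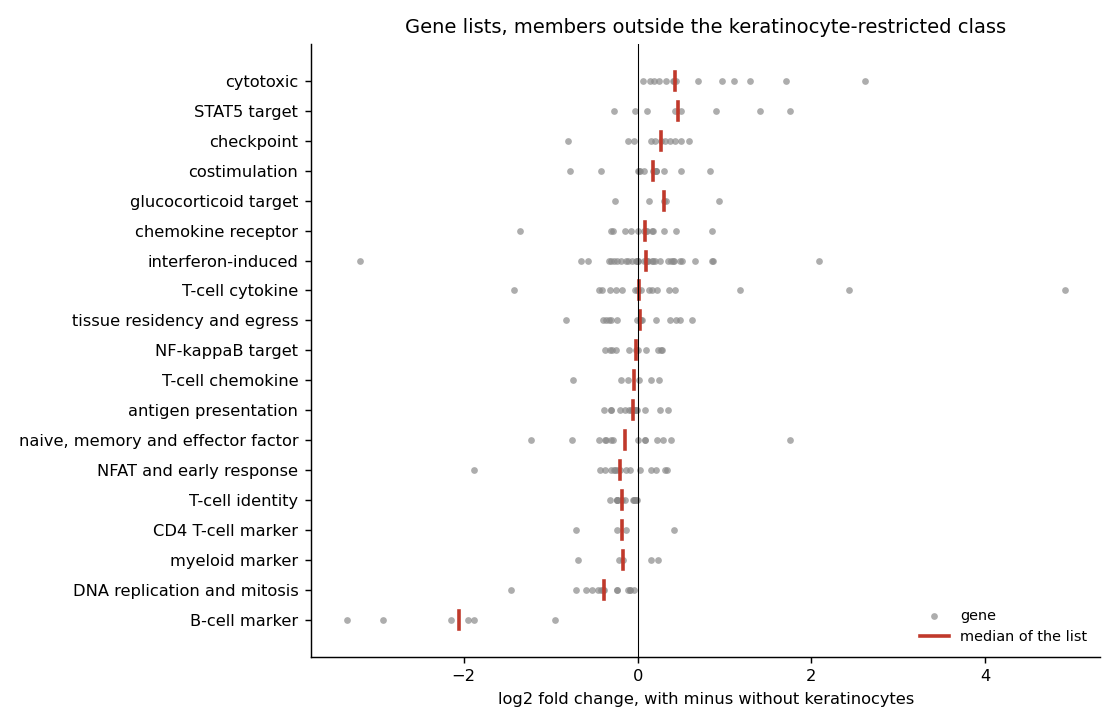
Log2 fold change, with minus without keratinocytes (x axis), of the members of each gene list that lie outside the keratinocyte-restricted class (rows). Points are genes and red ticks are list medians, and the B-cell list lies farthest below 0 with a median of -2.05.

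The effect of co-culture differed between T cells and keratinocytes for 76 of 13202 genes tested as an interaction over 8 libraries (0.576%). In 69 genes, all of the class, the change was higher in T cells, and 26 of the 31 genes were among them. Because the class is defined by high levels in keratinocytes alone and low levels in control T cells, which are the baselines of this interaction, the direction in the class is a description. In 7 genes, none of the class, it was lower in T cells. These were Cxcl9, Il18bp, Xaf1, Ubd, Phf11d, Gbp3, and Irf1, most of which are induced by interferons. For Cxcl9 the log2 fold change was 0.66 in T cells and 10.94 in keratinocytes (edgeR adjusted p of the difference = 0.00730). Cxcl9 was at 0.0365 and 0.0813 RPKM in keratinocytes alone, so the size of the keratinocyte change rests on few reads there.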

How the data were processed

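RNA was sequenced from 10 libraries, and gene tables on mouse GRCm38 were deposited. Per the file headers, the authors counted exon reads per gene (whole-number counts, uniquely and multiply mapped reads together) and gave RPKM values per gene, written with decimal commas and used here for levels. Reads had been mapped by the authors with the CLC Genomics Workbench at default settings. The annotation release is not given in the sources used here. Counts were tested by edgeR 4.0.16 (R 4.3.3) with the quasi-likelihood test, TMM scaling, the filterByExpr filter, and Benjamini-Hochberg adjustment at 0.05, over 6 T-cell libraries, which share one estimate of the spread. The interaction used 8 libraries. SE is the log2 fold change divided by the root of F. Named genes were the 10 class genes with the largest fold change among those past the threshold, with at least 5 RPKM and without overlap, the 10 remaining genes per direction with the largest change at an unadjusted p under 0.05, at least 5 RPKM, and without overlap, members of the gene lists, and a fixed set of CD8, cytokine, and chemokine genes. The class, the 34 gene lists, and the named genes were chosen with earlier results of these data known. As alternatives, library size scaling, limma 3.58.1 on log2(RPKM + 1) or log2(RPKM + 0.1), DESeq2 1.42.0, other filters, unique reads, and leaving out libraries were tried. DESeq2 on 4 libraries was added after seeing the data. Scripts were tested on simulated data. One gene that the rule names is not reported here.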

Additional observations from a re-analysis of the deposited data

Results flagged for a closer look

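For 11 named genes, the fitted effect of co-culture differed between T cells and keratinocytes (edgeR interaction term, adjusted p under 0.05). Of these, 10 belong to the keratinocyte-restricted class, whose definition uses both baselines of the interaction, so that their values are descriptions and no independent test. The difference of the log2 fold changes, T cells minus keratinocytes, was 17.72 for Lce3f, 17.11 for Calm4, 16.19 for 2310046K23Rik, 16.07 for Cdsn, 16.05 for Crct1, and 16.03 for Klk7. It was 15.98 for Lce3c, 15.91 for Klk6, 14.87 for Sprr1a, and 12.88 for Krt6b. These fitted values depend on the prior count, since all of these genes except Sprr1a had no read in T cells without keratinocytes, and they are no bounds. For Cxcl9, which is outside the class, the difference was -10.28, and its size rests on few reads in keratinocytes alone. Groups of 2 libraries are too small for a test of single outlying libraries.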

How the results depend on the processing

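No paired analysis was possible because the labels give the T-cell groups compared no replicate numbers, and numbers taken from the order of deposition do not pair libraries. A fit by pairs of the closest libraries was not run. The total of 31 genes became 87 with DESeq2, 99 and 107 with limma at a pseudocount of 1 and 0.1, 141 without a filter, 0 with at least 10 reads in every library, which by construction drops genes silent in the controls, and 147 with DESeq2 on 4 libraries, which was added after seeing the data. In the same order the class held 78, 98, 104, 112, 0, and 130 of them, and the remaining genes 9, 1, 3, 29, 0, and 17, and 1 with the class at 100 times. Leaving out 1 library each gave 16 to 52 genes in all, 16 to 45 of the class, and 0 to 7 remaining genes. Without control library 1 or 2 the total was 19 or 16, and without co-cultured library 1 it was 52, of which 30 were among the 31. DESeq2 called 25 of the 31, and lost among others Crct1, Lce3c, Lce3f, and Krt6b. The median share of the keratinocyte level, 0.805% in library 1, was 0.421% for basal, 9.25% for spinous, 164% for cornified envelope, and 137% for protease genes alone, and in library 2 9.74%, 98.1%, and 7.43% for the latter 3. The interaction gave 351 genes with DESeq2 and 0 with at least 10 reads in every library. Signs turned for genes with changes near 0: Ccl3 to -0.0270 and -0.0287 with limma and -0.0440 with library size, Ccl4 to 0.0371 and 0.0470 with limma, and Cd274 to 0.00497 with DESeq2, 0.00701 with at least 10 reads, 0.00486 with unique reads, and 0.00828 with 4 libraries. Leaving out 1 library each gave -0.26 to 0.19 for Cd8a, -0.64 to 0.33 for Cd8b1, -1.07 to 0.0520 for Ifng, -0.0459 to 0.0605 for Ccl3, -0.72 to 0.88 for Ccl4, and -0.15 to 0.13 for Cd274. Of 450 values of 39 named genes, 397 kept direction and side of the threshold, 9 lost and 25 gained significance, and 19 turned sign. The causes were not tested. Depth limits levels below about 0.2 RPKM for 1 kb of exons.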

Other observations

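No member of the following lists passed after adjustment by edgeR, and the median over all genes tested was -0.01 on the log2 scale. The median was 0.04 for 15 genes of glycolysis and hypoxia, 0.27 for 14 amino acid and ATF4 targets, 0.21 for 14 genes of cholesterol and fatty acid synthesis, and -0.19 for 10 TGF-β and aryl hydrocarbon receptor targets. It was -0.02 for 11 NF-κB targets, -0.17 for 18 NFAT and early response genes, 0.31 for 5 glucocorticoid targets, 0.18 for 13 costimulation genes, and 0.08 for 14 chemokine receptors. Leaving out 1 library each gave -0.23 to 0.43 for the ATF4 targets, -0.22 to 0.65 for cholesterol and fatty acid synthesis, -0.18 to 0.17 for the TGF-β and aryl hydrocarbon receptor targets, -0.13 to 0.08 for the NFAT and early response genes, -0.06 to 0.07 for the NF-κB targets, and -0.19 to 0.28 for the chemokine receptors, so that the sign of these medians changed with the library left out. The CD4 T-cell markers summed to 76.4 and 94.4 RPKM without and to 75.4 and 75.4 RPKM with keratinocytes.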
